A study of Mus musculus with 2 samples.

Results

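The genes described here encode 10 transcription factors of epithelial-mesenchymal transition (EMT) and of cushion mesenchyme: Snai1, Snai2, Twist1, Twist2, Zeb1, Zeb2, Prrx1, Prrx2, Msx1 and Msx2. They were picked by symbol, and all 10 were found among the 55348 gene entries of both count tables. The series compared RNA-seq libraries of E13.5 mouse hearts, 1 from wild-type embryos and 1 from Lmna H222P/H222P embryos, homozygous for a missense mutation of the lamin A/C gene that models a laminopathy. Both carry the strain label 129sv, and the number, pooling and sex of the hearts are not given in the sources used here. The study's title concerns the histone demethylase LSD1 as a target in this model, and the comparison asks how the mutant heart's transcripts differ from those of the wild type.

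In the developing heart, endocardial cells of the atrioventricular canal and outflow tract undergo EMT, lose their junctions and invade the cardiac jelly as cushion mesenchyme, which is later remodelled into valves and septa. BMP, TGF-beta and Notch signals from myocardium and endocardium start this process, and factors of the Snail, Zeb and Twist families carry it out by repressing junction genes such as the cadherins. Twist, Prrx and Msx factors then mark the mesenchyme itself, and they are also made by mesenchyme of the limbs, the face and the body wall, and partly by neural crest.

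Snail proteins begin with a short stretch called the SNAG domain, through which they bind LSD1, the enzyme named in the study's title. The first 27 coding bases of Snai1, Snai2, Snai3 and the blood cell repressor Gfi1b, from GENCODE release M21 transcripts, are shown because they tie 2 of the 10 genes to that enzyme. Capitals mark the 18 bases that are the same in all 4 genes.
Snai1: ATGCCgCGcTCCTTcCTgGTcAggAag
Snai2: ATGCCgCGcTCCTTcCTgGTcAagAaa
Snai3: ATGCCgCGcTCCTTcCTgGTgAaaAcg
Gfi1b: ATGCCaCGgTCCTTtCTaGTgAagAgt
Snai2 matched Snai1 at 25 of the 27 bases and Gfi1b matched it at 19.

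Upstream windows are shown for 3 of the genes whose ratio between the libraries was above 1.4-fold, Twist1, Snai1 and Msx1. Each window holds the 250 bases before the gene start in RefSeq (build GRCm38.p6) and overlaps no annotated exon. Capitals mark matches on either strand to CAGGTG, a hexamer bound by Snail and Zeb proteins and one form of the wider E-box motif CANNTG, and matches to TATAAA.
Twist1, chr12:33957421-33957670, plus strand: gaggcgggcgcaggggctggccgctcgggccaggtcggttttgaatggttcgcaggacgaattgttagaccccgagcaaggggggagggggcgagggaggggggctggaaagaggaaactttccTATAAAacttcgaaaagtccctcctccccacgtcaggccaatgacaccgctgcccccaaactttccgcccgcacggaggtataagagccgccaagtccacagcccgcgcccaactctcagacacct
Snai1, chr2:167537945-167538194, plus strand: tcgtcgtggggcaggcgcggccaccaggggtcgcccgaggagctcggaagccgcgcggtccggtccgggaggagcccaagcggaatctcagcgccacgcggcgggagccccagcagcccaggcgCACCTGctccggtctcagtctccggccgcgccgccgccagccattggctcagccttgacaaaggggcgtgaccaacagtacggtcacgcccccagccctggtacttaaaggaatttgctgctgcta
Msx1, chr5:37824586-37824835, minus strand: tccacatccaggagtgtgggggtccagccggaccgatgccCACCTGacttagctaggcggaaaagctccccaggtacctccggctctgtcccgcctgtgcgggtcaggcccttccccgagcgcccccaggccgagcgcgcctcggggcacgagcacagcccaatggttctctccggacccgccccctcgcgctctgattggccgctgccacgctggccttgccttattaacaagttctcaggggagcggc
The CAGGTG match began 126 bases before the start of Snai1 and 210 bases before that of Msx1, and 17.2% of 32851 such windows over all genes held this hexamer. The Twist1 window held no E-box, which 66.2% of all windows did, and its TATAAA, found in 12.4%, began 126 bases before the start. Windows were listed for 8 of the 10 genes, and CAGGTG was found for 2 of these 8, Snai1 and Msx1. The window of Msx2 overlaps an exon of that gene and is not shown. All these matches are letters in a window and not measured binding sites.

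The wild-type library was deeper, with 32669225 reads on genes against 25120790 in the mutant, so raw read counts do not compare directly. With 1 library per genotype no test of the genotypes was possible, so each difference lies between these 2 libraries, and every 95% interval given here covers counting error only. Levels are in CPM, the read count relative to the scaled library size. The libraries also differed in the levels of tissue and cell type markers. All 12 liver markers were at least 1.5-fold higher in the mutant library (summed level 32.9 CPM in the wild type, 6000 in the mutant), 8 of them under 1 CPM in the wild type and so measured only through the mutant library. So were 9 of 10 erythroid markers (222.3 and 1509 CPM, 1 measured only through the mutant library), while 9 of 12 cardiomyocyte markers were lower and 0 higher (30534 and 16249 CPM). Of 6 lung epithelium markers 2 were lower and 1 higher, and the surfactant gene Sftpc had 211 reads in the wild type and 1 in the mutant. For heart cell types, fewer cells and less RNA per cell cannot be told apart in bulk libraries. Whether reads of the liver and lung markers came from tissue other than heart was not tested.

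Twist1 and Msx2 were at least 2-fold higher in the mutant library, and the other 8 genes lay within 1.5-fold. A mean level of at least 1 CPM was reached by 14716 genes. Of these, 10.9% were at least 1.5-fold higher and 11.4% lower, against 2 and 0 of the 10 genes. At 2-fold the same 2 genes were counted, beside 5.95% (higher) and 4.35% (lower) of all genes. The median log2 ratio of the 10 genes was 0.21, against −0.01 over all genes, and their reads summed to 267 CPM in the wild type and 269 CPM in the mutant. All 10 passed the level of 1 CPM, Msx2 only through the mutant library.

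**Figure D1:**
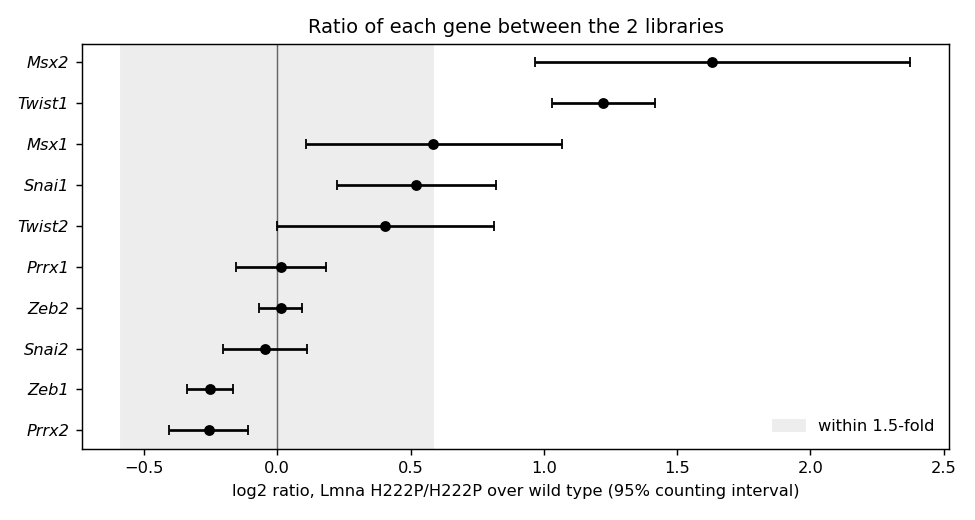
The horizontal axis gives the log2 ratio of the mutant to the wild-type level for each of the 10 genes, with its 95% counting interval, 1 library per genotype. The grey band spans ratios within 1.5-fold; Twist1 and Msx2 lie above it, Msx1 sits at its edge and the other 7 points lie inside.

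The Twist genes encode basic helix-loop-helix factors that bind E-boxes as dimers. Twist1 (chromosome 12, 33957671 to 33959829, mm10), which promotes the growth and migration of cushion mesenchyme, was covered by 332 wild-type and 663 mutant reads, or 10.7 and 25.03 CPM. Its log2 ratio was 1.22 (95% interval 1.03 to 1.42), a 2.33-fold difference whose whole interval lay above 2-fold. Of all measured genes, 4.69% had a higher ratio than Twist1. Twist2 (chromosome 1, 91801461 to 91848028), also called Dermo1, had 98 and 111 reads, 3.16 and 4.19 CPM, a log2 ratio of 0.41 (0.00 to 0.81) whose lower bound sat at equality. The libraries were thus apart for Twist1, while for Twist2 the counting intervals of the levels overlapped. The reads of both genes together gave a log2 ratio of 1.07 (0.90 to 1.25).

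Msx1 and Msx2 encode homeodomain factors with overlapping roles in the cushions, and both are known targets of BMP signalling. Msx2 (chromosome 13, 53466884 to 53473074) was covered by 25 wild-type and 67 mutant reads, 0.807 and 2.53 CPM, and was 3.10-fold higher (1.95 to 5.18). Of all measured genes, 3.42% had a higher ratio. Msx1 (chromosome 5, 37820485 to 37824583) had 67 and 86 reads, 2.16 and 3.25 CPM, and its ratio of 1.499 (1.08 to 2.10) fell just short of the 1.5-fold bound. Both intervals lay above equality, and both rest on fewer than 100 reads per library, which makes these the least precise ratios of the 10 genes.

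The Snail genes encode zinc finger repressors. Snai1 (chromosome 2, 167538195 to 167542814), the classic repressor of E-cadherin, was covered by 172 wild-type and 211 mutant reads, 5.55 and 7.97 CPM. It was 1.43-fold higher in the mutant library (1.17 to 1.77). Snai2 (chromosome 16, 14705852 to 14709385), also called Slug and the more abundant Snail gene here, had 741 and 614 reads, 23.9 and 23.2 CPM. Its log2 ratio of −0.04 (−0.20 to 0.11) spanned equality, so the 2 Snail genes differed in how they compared between the libraries.

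Zeb1 and Zeb2 encode large repressors with zinc fingers at both ends, and Zeb2 was first described as a partner of SMAD proteins. They held most of the reads of the 10 genes, and their ratios are therefore the most precise. Zeb1 (chromosome 18, 5591860 to 5775467) had 2643 and 1896 reads, 85.3 CPM in the wild type and 71.6 in the mutant, 1.19-fold lower in the mutant (1.12 to 1.26). Zeb2 (chromosome 2, 44983632 to 45117395) had 2682 and 2313 reads, 86.6 and 87.3 CPM, a log2 ratio of 0.01 (−0.07 to 0.09). Levels were thus lower in the mutant library for Zeb1, and for Zeb2 the libraries were within counting error.

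The paired-related homeobox genes Prrx1 and Prrx2 mark mesenchyme of the limbs, the face and, in the heart, cushions and vessel walls. Prrx1 (chromosome 1, 163245119 to 163313710) was covered by 614 wild-type and 530 mutant reads, 19.8 and 20.01 CPM, a log2 ratio of 0.01 (−0.16 to 0.18). Prrx2 (chromosome 2, 30834972 to 30881251) had 903 and 646 reads, 29.1 and 24.4 CPM, and was 1.19-fold lower in the mutant (1.08 to 1.32). With total-count scaling the log2 ratio of Prrx2 was −0.10 (−0.25 to 0.04), an interval that spans equality. That scaling, which moved the median of all genes from −0.01 to 0.15, turned the sums of the Zeb pair (−0.11 to 0.04) and the Prrx pair (−0.14 to 0.01) from below to above 0, so no direction is given for these families.

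**Figure D2:**
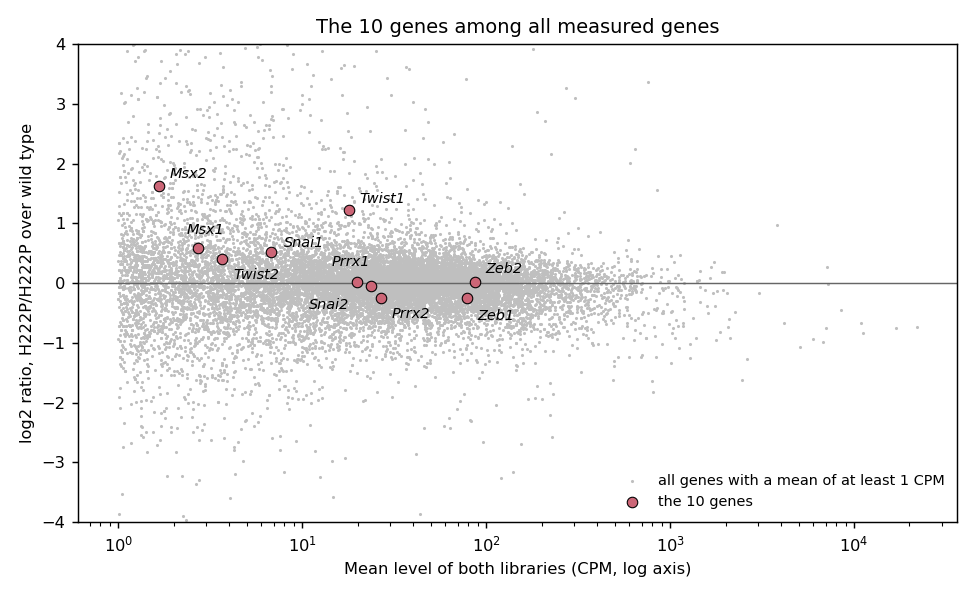
Log2 ratio, Lmna H222P/H222P over wild type, against the mean level of both libraries in CPM (log axis). Grey points are the 14716 genes that reached a mean level of 1 CPM and red points the 10 genes; 195 genes beyond a log2 ratio of 4 in either direction are not drawn. Twist1 and Msx2 are the uppermost of the red points, and Msx2 is the farthest left, at the lowest mean level.

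Within a library the share of reads that falls to each gene of a pair does not depend on how libraries are scaled. Snai1 made up 18.8% of Snail reads in the wild type (95% Clopper-Pearson interval 16.4 to 21.5) and 25.6% in the mutant (22.6 to 28.7). Twist1 made up 77.2% of Twist reads (72.9 to 81.1) and 85.7% (83.0 to 88.1), so the share of the first gene was larger in the mutant for both families. Prrx1 took 40.5% of the pair's reads in the wild type (38.0 to 43.0) and 45.1% in the mutant (42.2 to 48.0). The order was the other way for Zeb1, with 49.6% (48.3 to 51.0) and 45.0% (43.5 to 46.6), and for Msx1, with 72.8% (62.6 to 81.6) and 56.2% (48.0 to 64.2).

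The difference between paralogues can be given as the log2 ratio of their odds, mutant over wild type. It was 0.82 for Twist1 over Twist2 (0.36 to 1.27), 0.57 for Snai1 over Snai2 (0.23 to 0.90) and −1.06 for Msx1 over Msx2 (−1.94 to −0.21). For Prrx1 over Prrx2 it was 0.27 (0.04 to 0.50) and for Zeb1 over Zeb2 −0.27 (−0.38 to −0.15). All 5 intervals left out 0, which says only that the balance within each pair differed between these 2 libraries by more than counting error.

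**Figure D3:**
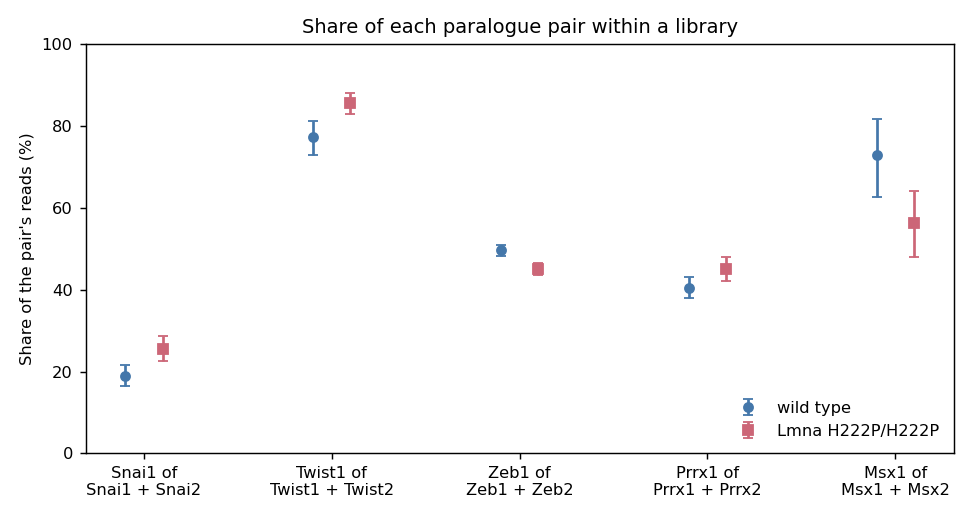
Share of each pair's reads, in percent, that fell to the first-named gene, with 95% Clopper-Pearson intervals, for the wild-type library (circles) and the Lmna H222P/H222P library (squares). Twist1 made up 77.2% and 85.7% of Twist reads and Msx1 72.8% and 56.2% of Msx reads.

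Levels of different genes are compared per length, as RPKM, the CPM divided by the summed exon length in kilobases. In the wild-type library Prrx2 was highest at 14.9 RPKM, followed by Snai2 at 11.8, Zeb1 at 8.31, Twist1 at 6.58, Zeb2 at 4.34, Snai1 at 3.42 and Prrx1 at 1.79. Twist2 (0.996), Msx1 (0.698) and Msx2 (0.246) were lowest, and of all neighbours in this order the intervals overlapped only for Twist2 and Msx1. In the mutant library Twist1 moved from the fourth place to the top at 15.4 RPKM, above Prrx2 (12.4) and Snai2 (11.5), whose intervals overlapped. Intervals also overlapped there for Snai1 (4.91) and Zeb2 (4.38), for Twist2 (1.32) and Msx1 (1.05), and for Msx1 and Msx2 (0.771). Zeb1 (6.97) and Prrx1 (1.81) stood apart from their neighbours.

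The order depends on the length used, since the summed exons of Zeb1, Zeb2 and Prrx1 are much longer than any single transcript of these genes. Those of Prrx2 hold 1961 bases, against 1441 in its longest transcript. Per base of the longest transcript, Prrx2 was first in the mutant library (16.9 RPKM) and Twist1 second (15.4), with counting intervals that overlapped. The place of Twist1 at the top, apart from Prrx2, thus holds for summed exons alone. In the wild type the same choice put Zeb1 (14.7) above Snai2 (11.8), and Zeb2 (9.49) above Twist1 (6.58). Twist1, Snai1 and Snai2 have a single annotated transcript, so their RPKM is the same with either length.

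**Figure D4:**
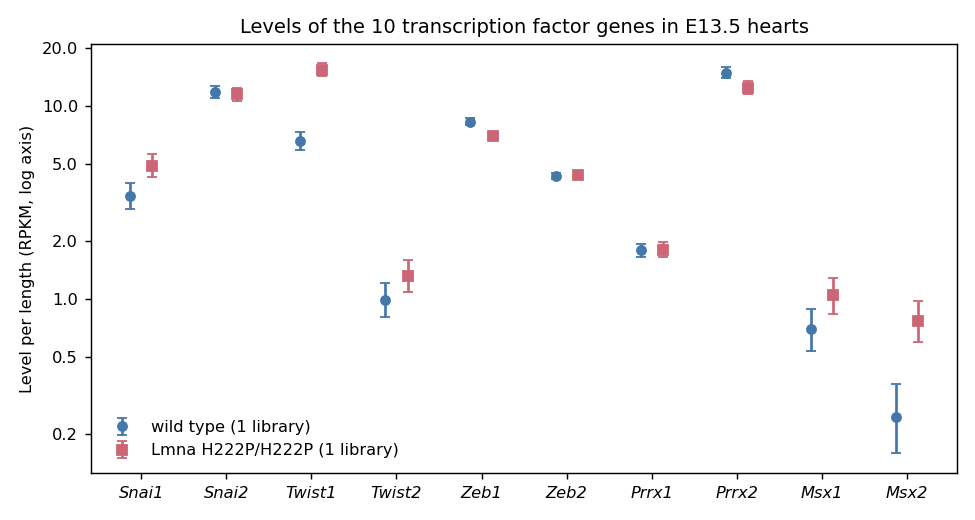
Level per length of each gene (RPKM, log axis) in the wild-type library (circles) and the Lmna H222P/H222P library (squares), with 95% counting intervals. Twist1 stood at 6.58 and 15.4 RPKM, Msx2 at 0.246 and 0.771, and Snai2, Zeb2 and Prrx1 nearly coincide.

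The counts used take reads from 1 strand, and for Twist2 this choice decided the count. The start of Twist2 lies opposite the antisense gene Gm29100, and transcripts of the 2 genes share 1468 bases. When both strands were counted together, Twist2 kept 15 of 98 reads in the wild type and 20 of 111 in the mutant. The 83 and 91 reads that dropped out equal the opposite-strand reads of Gm29100 (83 and 91), which had 9 and 11 reads on its own strand. From the remaining reads the log2 ratio of Twist2 was 0.62 (−0.40 to 1.70), an interval that spans equality. Twist1's share of the pair became 95.7% and 97.1%. Among all measured genes, 2.64% lost over 50% of their reads in this way in the wild-type library.

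Zeb2 overlaps the antisense gene Zeb2os, and 5.33% of its reads in the wild type (4.53 to 6.22) and 4.74% in the mutant (3.93 to 5.66) lay on the opposite strand. That is above the median over all genes of 0.614% and 0.544%. In each library the opposite-strand share was at most 2% for the other 9 genes. Near-identical copies can also remove reads, because reads that map to several places were not counted. No other gene's transcript shared 100 bases at 90% identity with Snai1, Twist1, Zeb1, Prrx2 or Msx1, whereas a stretch of Msx2 aligned at up to 117 bases with transcripts of 39 genes. The longest run of identical coding bases between Twist1 and Twist2, 23 bases, is shown because it is the closest these paralogues come: ctgcgcaagatcatccccacgct. In the other 4 pairs this run was 19 to 23 bases.

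Of 22 ligands, receptors and other signal genes of cushion EMT, 3 were at least 1.5-fold higher in the mutant library, 2 lower and 17 between (median log2 ratio 0.08), shares close to the 10.9% and 11.4% of all genes. The higher genes were Has2, the hyaluronan synthase of cardiac jelly (2.43-fold, 2.09 to 2.83), the ligand gene Bmp2 (1.87-fold, 1.599 to 2.19) and the receptor gene Egfr (1.79-fold, 1.57 to 2.04). Acvrl1, an endothelial receptor of the TGF-beta family (1.81-fold, 1.51 to 2.17), and the Notch ligand gene Dll4 were lower. Ctnnb1, beta-catenin and the most abundant gene of the list, had 34247 and 27817 reads and a log2 ratio of −0.07. Bmp2, Egfr and Dll4 are named because they complete these counts, and were picked after their values were seen.

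Among 11 dimer partners, inhibitors and corepressors of these factors, 1 was higher, 0 were lower and 10 lay between (median 0.17). Tcf3 and Tcf12, E proteins that pair with Twist, gave 0.48 (0.42 to 0.54) and 0.37 (0.31 to 0.42) on the log2 scale, against −0.51 (−0.58 to −0.45) for a further E protein gene, Tcf4. Hand1, a partner of E proteins in ventricular muscle, was 1.85-fold higher (1.61 to 2.14), and Hand2, which can pair with Twist1, had a log2 ratio of −0.08. The corepressor gene Ctbp1, whose product is bound by Zeb proteins, had a log2 ratio of 0.14.

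Of 18 other cushion and valve transcription factors, 2 were higher and 2 lower. Sox9, which drives the growth and matrix programme of cushion mesenchyme, had 452 and 859 reads and was 2.22-fold higher (1.98 to 2.50). Tbx3 was the other higher gene, with 428 and 730 reads. Erg, an endothelial ETS factor, was 1.68-fold lower (log2 ratio −0.74, −0.91 to −0.58), Klf2, a flow-responsive factor of endocardium, was the other lower gene, and Tbx20, the most abundant, had a log2 ratio of −0.51. Tbx3 and Klf2 are named for the same reason as Bmp2.

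Genes that act in mesenchyme went both ways. Of 10 markers of cushion mesenchyme, 5 were higher and 2 lower, with a median log2 ratio of 0.70, while their summed level was 1760 CPM in the wild type and 1699 in the mutant. Sox9 and Has2 belong to this list too. Vcan, the versican gene of cardiac jelly, was the most abundant of the 10 and had a log2 ratio of 0.45. Postn encodes periostin, a matrix protein of maturing valves, and its level was 2.03-fold lower (1.98 to 2.09). Of 18 measured mesenchymal effectors, 8 were lower and 1 higher (median −0.49), with Col1a1, a chain of type I collagen, 3.54-fold lower (3.46 to 3.62) and the receptor gene Pdgfra 2.40-fold higher (2.28 to 2.52). Fn1, fibronectin, was the most abundant of these and had a log2 ratio of 0.05.

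Junction genes of the kind that Snail and Zeb proteins repress were described within 2 wider lists. The epithelial list also holds keratin and regulator genes, and the endothelial list also holds receptor genes. Of 13 measured epithelial genes, 2 were higher and 0 lower. These were the keratin genes Krt8 (1.87-fold, 1.72 to 2.05) and Krt18 (1.69-fold, 1.55 to 1.84, picked after its values were seen), which liver cells also express. Cdh1, the E-cadherin gene and the classic target of Snai1, had 368 and 450 reads and was 1.43-fold higher (1.24 to 1.65), within the 1.5-fold bound. Krt19, the most abundant and a gene of the epicardium too, had a log2 ratio of −0.45. Of 10 endothelial junction and receptor genes, 5 were lower, receptor genes among them, and 1 was higher (median −0.58). Pecam1, a junction protein gene of all endothelium, was 1.69-fold lower (log2 ratio −0.75, −0.83 to −0.68). Ocln, with 121 and 230 reads, was 2.22-fold higher.

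All 12 genes of the LSD1-CoREST complex lay within 1.5-fold. Kdm1a, which encodes LSD1, had 3628 and 3549 reads, 117 and 134 CPM, a log2 ratio of 0.19 (0.13 to 0.26). Rcor2 was the highest (1.33-fold, 1.21 to 1.45), Rcor3 the lowest (1.33-fold lower, 1.21 to 1.46) and Hdac2 the most abundant (log2 ratio −0.22). Of 11 genes with a SNAG domain, only 4 reached a mean of 1 CPM: Snai1, Snai2, Gfi1b and Insm1. Gfi1b, a repressor of red cell and platelet precursors, had 18 reads in the wild type and 242 in the mutant, and Insm1, of neuroendocrine cells, had 7 and 52. Both reached that level only through the mutant library. The third Snail gene, Snai3, had 28 and 15 reads, the Scratch genes Scrt1 and Scrt2 had 8 reads or fewer per library, and Msx3 was listed at 0 in both.

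Many markers of other mesenchyme and of neural crest, though not all, were higher in the mutant library, as Twist1 and Msx2 were, and their part in those ratios was not tested. Of 13 markers of craniofacial, limb and body wall mesenchyme, 6 were measured, of which 5 were at least 1.5-fold higher and 0 lower. Of these 6 genes, 4 were under 1 CPM in the wild type. The summed level of all 13 markers was 21.1 CPM in the wild type and 80.2 CPM in the mutant. Barx1, a stomach and jaw mesenchyme factor with 8 and 1234 reads, made up 0.258 and 46.6 CPM of these sums. Without Barx1 the sums were 20.8 and 33.6 CPM, and none of the 13 markers was at 0 in either library. The Prrx relative Alx4 (50 and 80 reads) was among those higher, whereas Shox2, also made by the sinus node of the heart, had a log2 ratio of 0.30. Shox2, at 16.7 and 20.5 CPM, held most of the sums without Barx1.

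Of 11 lung and gut mesenchyme markers, 6 were higher and 2 lower, with summed levels of 104 and 204 CPM, or 104 and 158 CPM without Barx1. Of the 6 higher genes, 2 were under 1 CPM in the wild type. Foxf1, a gut and lung mesenchyme factor, had 451 and 1543 reads, whereas Tbx4, a lung mesenchyme factor and the lowest of the list, had 425 and 202. Of 9 markers of neural crest, glia and neurons, 8 were measured, 6 were higher and 0 lower, with summed levels of 21.01 and 56.1 CPM, and 3 of the 8 reached 1 CPM only in the mutant library. Foxd3, an early neural crest factor, was the highest of them with 5 and 69 reads, and Tubb3, a neuronal tubulin, the most abundant with 93 and 318. In both of these lists no marker was at 0 in either library.

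Markers of the cardiac cell layers from which cushion cells derive, or which surround them, were lower or within 1.5-fold. Of 10 endocardial and endothelial markers, 6 were lower and 0 higher, with summed levels of 1166 CPM in the wild type and 763 in the mutant. Npr3, an endocardial receptor and the most abundant of them, was 1.62-fold lower (1.56 to 1.69). Nfatc1, the endocardial factor needed for valve growth, had a log2 ratio of 0.05. Of 9 epicardial markers, 2 were lower and 0 higher (566 and 449 CPM), with Msln 7.04-fold lower (5.58 to 9.09) and Tcf21 at a log2 ratio of 0.27. In the cardiomyocyte list Myh7 was the most abundant gene, 2.11-fold lower, and Tnni3 was the lowest, 3.07-fold lower (2.99 to 3.16).

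**Figure D5:**
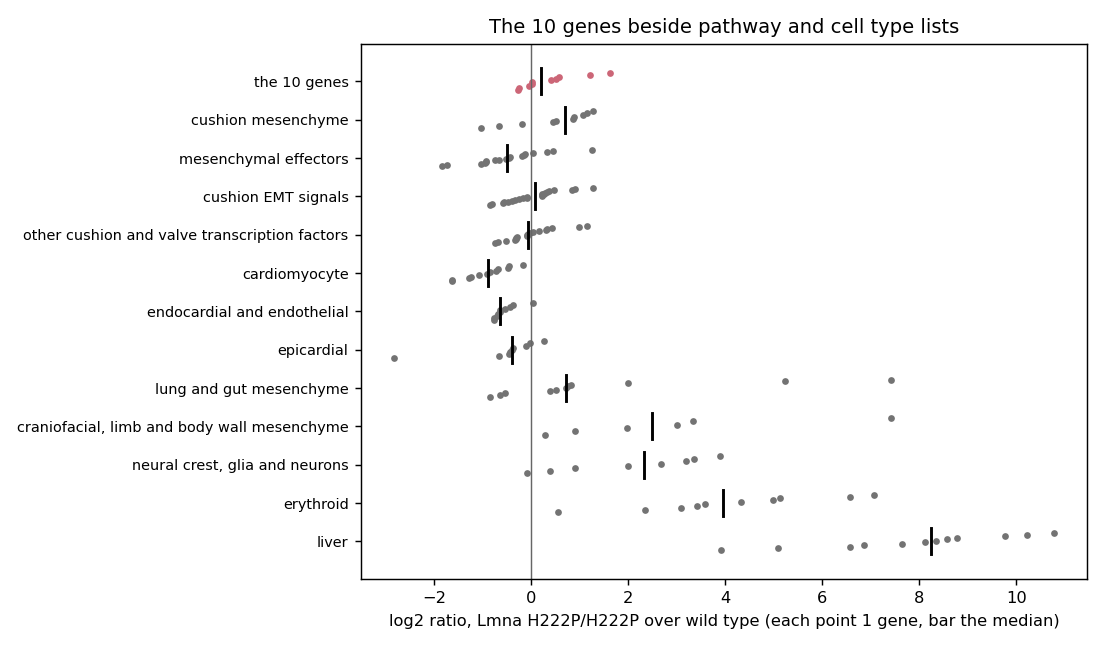
Log2 ratio, Lmna H222P/H222P over wild type, of each measured gene (points) in the 10 transcription factor genes (red) and in 12 lists of pathways and cell types (grey), with list medians as bars. The 10 genes have a median of 0.21, cushion mesenchyme markers 0.70, mesenchymal effectors −0.49, cardiomyocyte markers −0.87 and liver markers 8.23.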

How the data were processed

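Each deposited table gives the raw count of reads per gene, on both strands together and on each strand, with 4 summary entries that were left out of library sizes. The submitters' processing notes name STAR, HTSeq, DESeq and mm10, without versions or roles, and the sources used here do not name the annotation release. The reverse-strand column was used, since it held 19.3 and 20.5 times the reads of the other strand. Reads on genes were 82.8% and 82.0% of all reads, and 5.37% and 6.09% mapped to several places. Positions and exon lengths come from GENCODE M21 (GRCm38, the same assembly as mm10), in which 53244 entries matched 1 gene.

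TMM factors over all genes (0.948 and 1.05) were computed with edgeR 4.0.16 (R 4.3.3). Log2 ratios used a prior count of 0.5. Ratio and share intervals are exact Clopper-Pearson intervals at 95%, level intervals exact Poisson intervals, and intervals for the odds of paralogues exact conditional intervals, computed in Python 3.11.15 with scipy 1.17.1. Reads carry no molecular identifiers, so intervals cover counting error only and can be too narrow even for that. Genes were described at a mean of at least 1 CPM by a 1.5-fold bound. Copies were sought with blastn 2.17.0 (at least 90% identity over 100 bases). The ratio, interval and call steps were tested on simulated Poisson counts, with the scaled library sizes taken as known. That did not test the scaling or any variation beyond counting error.

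The 10 genes and the 20 gene lists were chosen with earlier results of these data known. Named are the 10 genes, direct relatives and partners and, in each list, the most abundant, highest and lowest gene with a mean of at least 1 CPM, besides genes stated to be picked after their values were seen; a gene that this rule names is not reported here. Of the macrophage list 1 of 5 genes was lower and 0 higher. Of 6 measured relatives of the 10 genes, 2 were higher and 1 lower. As alternatives, ratios were recomputed with total counts, DESeq2 1.42.0 size factors, scaling without globin, liver, erythroid and mitochondrial-like entries, the unstranded column, a prior count of 5, no filter, a mean of at least 5 CPM, protein-coding genes, a 2-fold bound and the longest transcript as length.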

Additional observations from a re-analysis of the deposited data

How the results depend on the processing

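The log2 ratios of Twist1 (1.19 to 1.38), Msx2 (1.602 to 1.78), Msx1 (0.56 to 0.74), Snai1 (0.49 to 0.67) and Twist2 (0.38 to 0.56) stayed above 0 under all 5 scalings of the reverse-strand counts. These brackets give the range over scalings and not counting intervals. Under DESeq2 size factors the counting interval of Twist2 (−0.03 to 0.78) spanned equality. Scaling by total counts, which raised the median of all genes from −0.01 to 0.15, moved Prrx2 to −0.10, Zeb1 to −0.10 and Zeb2 to 0.17 (0.08 to 0.25), beyond their counting intervals, and put Snai2 at 0.11. Under DESeq2 size factors Zeb2 (−0.02) and Prrx1 (−0.01) lay just below 0. With total counts 4 genes were at least 1.5-fold higher (Snai1 and Msx1 joined Twist1 and Msx2), beside 15.2% of all genes that were higher and 7.74% lower. At a mean of at least 5 CPM, 1 gene was higher, since Msx1, Msx2 and Twist2 were left out, beside 7.11% of all genes higher and 9.25% lower. In the unstranded column Twist1's share of Twist reads was 95.7% and 97.1%. No paired analysis was possible because each genotype has 1 library. Depth limits Msx1, Msx2 and Twist2 most: a count of 3 equals 0.0968 CPM (wild type) or 0.113 CPM (mutant).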

Other observations

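The measured protein-coding genes that flank the 10 genes on the chromosome were looked up after the values above had been seen. Of 20 such neighbours, 2 were at least 1.5-fold higher in the mutant library, 3 lower and 15 between. Over all measured genes 10.9% were higher and 11.4% lower, so these counts lie near those shares. Twist1 and Twist2 each lie beside a class IIa histone deacetylase gene. Hdac9 (chromosome 12, 34047580 to 34917095), 87.8 kb from Twist1 and known to hold Twist1 enhancers in its introns, had 1954 reads in the wild type and 848 in the mutant, a log2 ratio of −0.98 (−1.10 to −0.86), whereas Twist1 had 1.22. Hdac4, 80.8 kb from Twist2, had 580 and 665 reads and a log2 ratio of 0.42 (0.26 to 0.59), close to the 0.41 of Twist2. Asb1, 242 kb to the other side of Twist2, had a log2 ratio of 0.45 (0.31 to 0.60).

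Among the other neighbours, Cytl1, a secreted factor of cartilage 80.7 kb from Msx1, had 200 and 28 reads, and Fmo2, a flavin monooxygenase gene 346 kb from Prrx1, had 262 and 28, while Msx1 had a log2 ratio of 0.58 and Prrx1 of 0.01. Sfxn1, 599 kb from Msx2, was higher in the mutant library, as Msx2 was (1192 and 1774 reads, log2 ratio 0.80, 0.69 to 0.91). Abcc1, 230 kb from Snai2, was also higher (272 and 371 reads, log2 ratio 0.67, 0.44 to 0.91), against −0.04 for Snai2.

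Dnm3os, a non-coding RNA that hosts miR-199a and miR-214 and is a known target of Twist1, had 562 reads in the wild type and 1004 in the mutant, 2.09-fold higher (1.88 to 2.32). Dnm3os was also picked after its values were seen. Targets of Twist1 were not listed as a set, so how other targets compare is not shown, and a link to Twist1 was not tested.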
